A study of Mus musculus with 6 samples.

Results

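The 10 genes described here are markers of the liver sinusoidal endothelium: Stab1, Stab2, Lyve1, Clec4g, Fcgr2b, Kdr, Tek, Eng, Pecam1 and Cdh5. They were taken by symbol, as every probe set that the platform annotation assigns to exactly 1 of them, out of 18194 genes named in that way. They have 18 probe sets among the 45101 of the table. Liver RNA of C57BL/6 mice on a ketogenic diet (F3666) was compared with that of mice on chow (Labdiet 5008), to see how the livers differ between the diets. There were 3 arrays per diet. All mice were 8 weeks old when the diets began, were fed for 6 weeks and were killed in the morning while feeding freely. The design text speaks of RNA from 2 to 3 animals per group. Nothing given says whether an array held 1 animal or a pool, and the p-values reflect no more than the variation among the 6 arrays, part of which may be technical.

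Liver sinusoids are lined by a fenestrated endothelium without a continuous basement membrane, through which plasma reaches the hepatocytes. These cells clear macromolecules from blood with the scavenger receptors stabilin-1 and stabilin-2 (Stab1, Stab2), the lectin LSECtin (Clec4g) and the inhibitory Fc receptor Fcgr2b, and they carry the hyaluronan receptor Lyve1. They share with other endothelium the receptor of vascular endothelial growth factor (Kdr), the angiopoietin receptor Tie2 (Tek), the transforming growth factor co-receptor endoglin (Eng) and the junction proteins Pecam1 and VE-cadherin (Cdh5). Stab1, Lyve1 and Fcgr2b are also made by some macrophages, Fcgr2b by B cells and Pecam1 by leukocytes and platelets. A whole liver holds few endothelial cells beside its hepatocytes, and in such bulk RNA a change in the number of cells of a type cannot be told apart from a change in RNA per cell.

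The values are linear probe set signals. For tests they were raised to a floor of 1.1, put on the log2 scale and compared with limma, p-values being adjusted by the Benjamini-Hochberg method and called under 0.05. A first fit took the 22515 probe sets whose log2 signal, averaged over arrays, reached the table's median. A second fit took 11866 genes, each represented by its brightest such probe set. Differences are ketogenic minus chow, with the moderated standard error (SE).

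Array brightness varied. As a 2% trimmed mean, the signal came to 54.93, 60.99 and 45.81 on ketogenic arrays 1, 2 and 3, and 53.45, 46.29 and 39.87 on chow arrays 1, 2 and 3. Ketogenic array 3 was thus the dimmest of its diet and chow array 1 the brightest of its diet, and the diets overlapped (exact permutation p = 0.3, two-sided). Over all genes the median log2 difference was 0.235, so a small positive difference was the usual one: 69.9% of all genes had a positive sign. Added hybridization controls had a signal of 499.5 ± 18.4 on ketogenic and 641.7 ± 8.53 on chow arrays (SD, n = 3 each, exact permutation p = 0.1). The 3' to 5' signal ratio of actin, which reflects RNA integrity, was 1.585 ± 0.082 on ketogenic and 2.076 ± 0.107 on chow arrays (SD, n = 3 each, exact permutation p = 0.1). The same ratio of Gapdh overlapped between the diets. It was 0.7929 ± 0.0187 on ketogenic and 0.839 ± 0.115 on chow arrays (SD, n = 3 each, exact permutation p = 0.9). With 3 arrays against 3, 0.1 is the smallest p that this test allows. The part of these array measures in the results was not tested.

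All 10 genes were measured above background. A background of 10.76 was set from 27 bacterial control probe sets whose targets mouse RNA does not contain, and each gene had at least 1 probe set over it on every array. Of the 18 probe sets, 16 passed the filter on low signals. The other 2 lay under the background on all arrays: Clec4g probe set 1431575_at at 3.133 ± 0.462 on ketogenic and 2.567 ± 0.802 on chow arrays, and Fcgr2b probe set 1447622_at at 1.067 ± 1.07 on ketogenic and 0.9667 ± 0.208 on chow arrays (SD, n = 3 each). They carry no usable level.

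Of the 10 genes, Tek and Eng rose on the ketogenic diet in the gene fit, and none fell. In the same fit 6.52% of all genes rose and 0.868% fell. In the fit over probe sets, that of Tek rose and none of the 16 fell, against 4.08% and 0.564% of all probe sets. All 16 log2 differences were positive, from 0.239 to 1.19, with a median of 0.82 beside 0.221 for all probe sets. Over the 10 genes the median was 0.847. Signals of the diets did not overlap, with ketogenic higher, for 12 of the 16 probe sets and 7 of the 10 genes, where 21.6% of all probe sets and 24.0% of all genes did so. The genes that overlapped were Lyve1, Kdr and Cdh5. Among the 16 probe sets, Cdh5 1422047_at had a chow mean of 9.433, under the signal of 10.22 needed to pass the filter. It passed only through its ketogenic arrays, so its place in these counts is no added evidence. At an unadjusted p under 0.05 in limma 7 of the 10 genes were higher, as were 18.9% of all genes. Several probe sets of 1 gene share their transcript and are not independent counts.

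**Figure D1:**
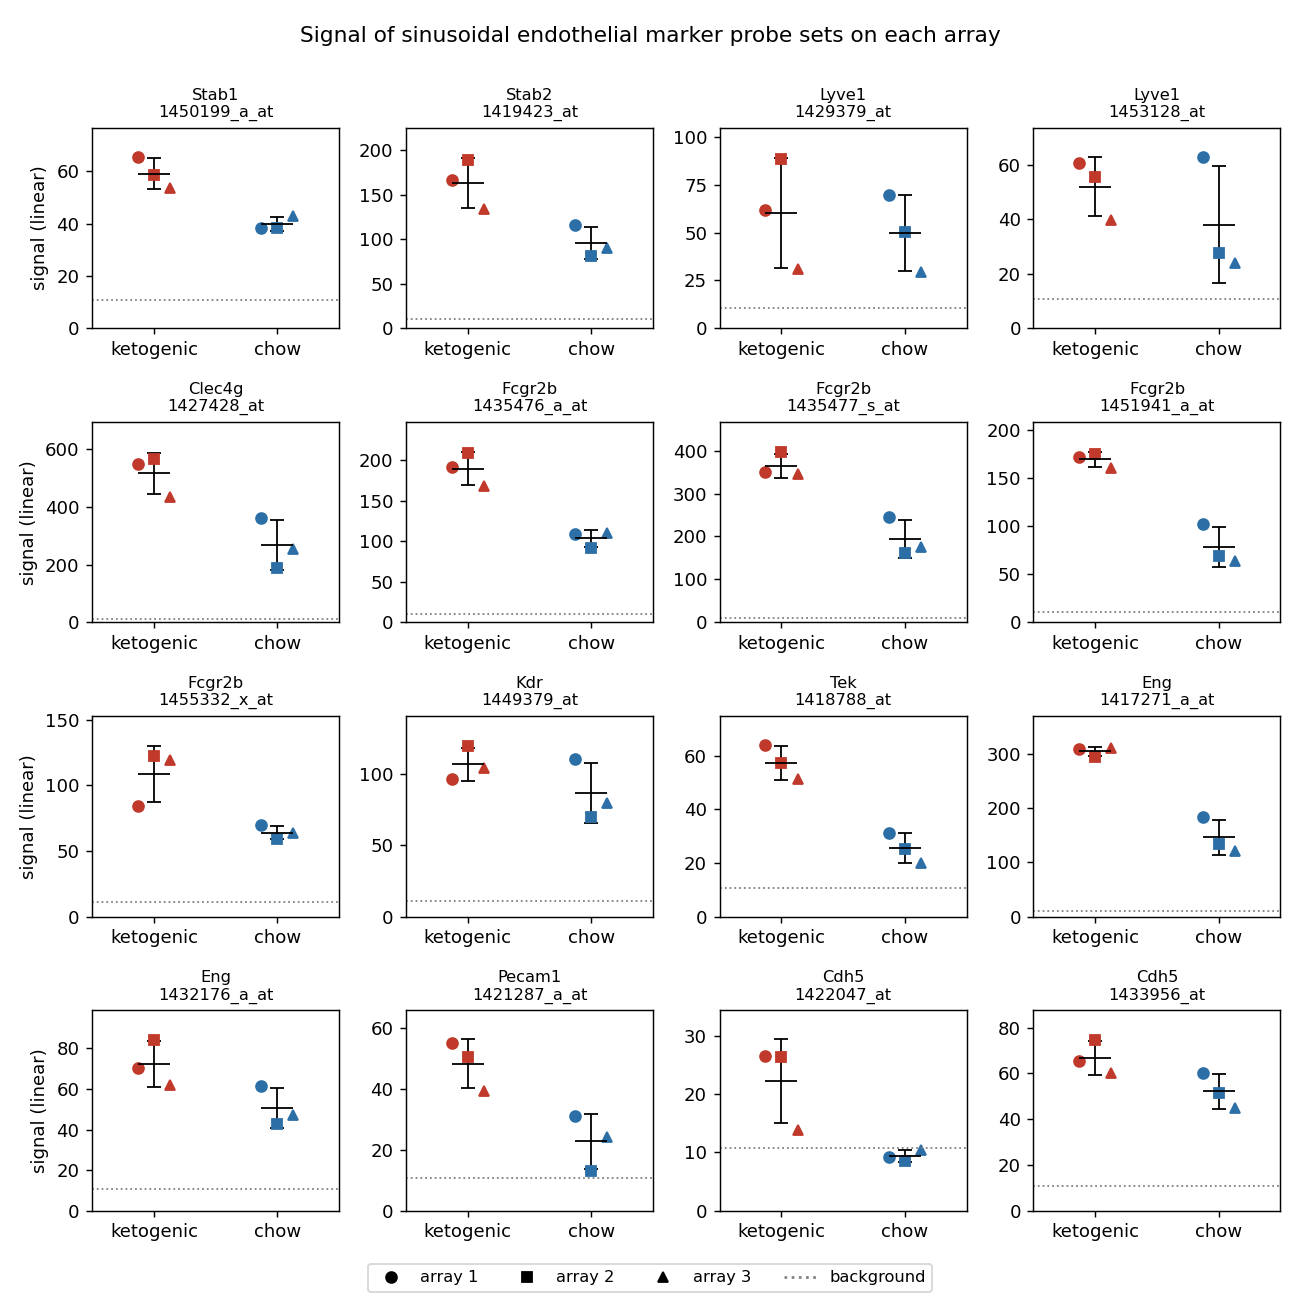
Signal (linear) of the 16 marker probe sets on the 3 ketogenic (red) and 3 chow (blue) arrays, 1 panel per probe set with its own axis from 0, where points are arrays, horizontal marks with bars are means with SD, and the dotted line is the background of 10.76. Tek and the brighter Eng probe set have all ketogenic points above all chow points, while Lyve1 and Kdr overlap, and one Cdh5 probe set lies under the background on all chow arrays.

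Tek encodes Tie2, the receptor through which angiopoietins keep vessels quiescent. Its probe set 1418788_at had signals of 63.9, 57.5 and 51.2 on ketogenic arrays 1, 2 and 3, and of 31.2, 25.2 and 20 on chow arrays 1, 2 and 3. The lowest ketogenic array lay well above the highest chow array. The mean was 57.53 ± 6.35 on ketogenic and 25.47 ± 5.6 on chow arrays (SD, n = 3 each), a log2 difference of 1.19 ± 0.26 (SE, limma adjusted p = 0.024 over genes and 0.0411 over probe sets). This was the largest difference of the 10 genes and lay above that of 93.2% of all genes.

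Eng encodes endoglin, a co-receptor for bone morphogenetic protein 9 on endothelium. Its brighter probe set, 1417271_a_at, had signals of 308.9, 294.4 and 311.0 on the ketogenic arrays and of 183.1, 133.6 and 121.5 on the chow arrays. The ketogenic arrays were close to each other, and chow array 1 was the highest of its diet. The log2 difference was 1.08 ± 0.25 (SE, limma adjusted p = 0.031 over genes). Over probe sets the same values gave adjusted p = 0.0512, just short of the threshold. The dimmer probe set, 1432176_a_at, had 70.6, 84.2 and 62.0 on ketogenic and 61.7, 42.8 and 47.4 on chow arrays, a smaller log2 difference of 0.52 ± 0.26 (SE, limma adjusted p = 0.317). The diets did not overlap on either probe set, but on the dimmer one ketogenic array 3 and chow array 1 nearly met.

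Kdr encodes the main endothelial receptor of vascular endothelial growth factor. Its signals were 96.3, 119.5 and 104.3 on ketogenic arrays and 110.7, 70.0 and 79.3 on chow arrays. Chow array 1 lay among the ketogenic arrays. The log2 difference was 0.32 ± 0.26 (SE, limma adjusted p = 0.491 over genes) with a 95% interval from -0.262 to 0.906. That interval overlaps that of Tek, from 0.618 to 1.77, and the difference between these receptors was not tested.

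The stretches just upstream of these 3 receptor genes are shown because Tek and Eng rose and Kdr, expressed in the same cells, did not pass. Each is the 250 bases before the annotated start, 5′ to 3′ on the gene's strand, from RefSeq on GRCm38.p6: Tek at chr4:94739039-94739288 on the plus strand, Eng at chr2:32646345-32646594 on the plus strand and Kdr at chr5:75978456-75978705 on the minus strand. Capitals mark matches, on either strand, to GGAAG, a form of the site bound by ETS factors, many of which act in endothelium.
Tek: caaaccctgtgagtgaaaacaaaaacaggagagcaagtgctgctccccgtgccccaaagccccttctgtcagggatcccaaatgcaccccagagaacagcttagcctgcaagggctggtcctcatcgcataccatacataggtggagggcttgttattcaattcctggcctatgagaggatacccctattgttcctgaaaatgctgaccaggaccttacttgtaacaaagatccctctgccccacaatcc
Eng: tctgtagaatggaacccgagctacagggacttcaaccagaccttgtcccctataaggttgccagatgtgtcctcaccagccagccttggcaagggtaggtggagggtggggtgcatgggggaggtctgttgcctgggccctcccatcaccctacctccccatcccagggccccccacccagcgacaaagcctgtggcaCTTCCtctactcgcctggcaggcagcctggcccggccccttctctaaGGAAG
Kdr: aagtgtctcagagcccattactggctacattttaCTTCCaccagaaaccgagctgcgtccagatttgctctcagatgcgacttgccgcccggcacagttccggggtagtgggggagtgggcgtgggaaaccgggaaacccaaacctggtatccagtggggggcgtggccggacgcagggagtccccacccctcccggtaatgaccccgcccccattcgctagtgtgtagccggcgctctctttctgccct

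Eng held 2 matches to GGAAG, Kdr 1 and Tek 0. Other forms of the ETS site, such as GGAA before another base, were not marked. The 0 of Tek thus does not mean that its window lacks an ETS site. A window was given for 7 of the 10 genes, the others being Lyve1, Pecam1 and Cdh5. Of these 7, all but Tek held GGAAG, while 64.1% of the 32851 windows of all genes did. GATAA, a form of the site that GATA factors bind, was in 0 of the 7 and in 22.6% of all windows. Other forms of that site were not searched, so 0 does not mean that these windows lack a GATA site. Overlapping matches were counted separately, as in the window of Clec4g, where GGAAG matches share a base. A match is no evidence of binding, and the windows do not reach distant enhancers.

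The scavenger receptors did not pass the threshold. Stab2 clears hyaluronan and other ligands from blood. It had 166.7, 189.0 and 133.7 on ketogenic arrays and 116.1, 81.4 and 90.2 on chow arrays, so the diets did not overlap. The log2 difference was 0.77 ± 0.26 (SE, limma adjusted p = 0.111 over genes). Stab1, which takes up modified lipoproteins and matrix fragments, had 65.3, 58.5 and 53.4 on ketogenic arrays and 38.2, 38.3 and 43.0 on chow arrays. These did not overlap either, with a log2 difference of 0.57 ± 0.22 (SE, limma adjusted p = 0.17 over genes).

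Clec4g encodes LSECtin, a C-type lectin of sinusoidal endothelium in liver and lymph node. Probe set 1427428_at had 548.1, 565.7 and 434.7 on ketogenic arrays and 359.6, 188.8 and 253.3 on chow arrays. The diets did not overlap, but chow arrays 1 and 2 were far apart. The log2 difference was 0.99 ± 0.29 (SE, limma adjusted p = 0.0751 over genes) with a 95% interval from 0.334 to 1.65.

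Lyve1 was the most variable of the 10 genes. Probe set 1429379_at had 61.7, 88.6 and 31.1 on ketogenic arrays and 69.6, 50.2 and 29.6 on chow arrays. The range within each diet was wider than the difference of 0.24 ± 0.44 (log2, SE, limma adjusted p = 0.781 over genes). Its interval, from -0.745 to 1.22, includes both signs. With quantile normalization the sign turned, to -0.0658 on the log2 scale. Probe set 1453128_at had 60.6, 55.6 and 39.8 on ketogenic arrays and 62.9, 27.5 and 23.9 on chow arrays. Here chow array 1 lay above all ketogenic arrays and the other two chow arrays below them, and the log2 difference was 0.57 ± 0.39 (SE, limma adjusted p = 0.461).

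Fcgr2b, the inhibitory receptor for immunoglobulin G, clears small immune complexes in the sinusoid. Its 4 usable probe sets had log2 differences of 0.74 to 1.14, and on each of them all ketogenic arrays lay above all chow arrays. The largest difference was that of 1451941_a_at, with signals of 172.0, 175.8 and 161.3 on ketogenic arrays and 102.7, 68.9 and 64.3 on chow arrays. It was 1.14 ± 0.27 (log2, SE), with limma adjusted p = 0.05, which rounds to the threshold but was not under it. The brightest, 1435477_s_at, represents the gene and had 350.5, 395.5 and 344.8 on ketogenic arrays and 245.1, 162.6 and 175.3 on chow arrays. Its log2 difference was 0.92 ± 0.25 (SE, limma adjusted p = 0.0577 over genes). The names 1435477_s_at and 1455332_x_at mark probe sets that can bind several transcripts. Fcgr3, an activating receptor of macrophages whose outer part is nearly identical to that of Fcgr2b, rose by 2.30 ± 0.38 (log2, SE, limma adjusted p = 0.00918), with 106.4, 92.2 and 83.8 on ketogenic and 25.2, 27.1 and 10 on chow arrays. How much Fcgr3 RNA adds to the Fcgr2b signals was not tested.

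Pecam1 (CD31) is an adhesion molecule of endothelial junctions, leukocytes and platelets. It had 54.9, 50.3 and 39.4 on ketogenic arrays and 31, 13 and 24.2 on chow arrays. The diets did not overlap, and the chow arrays differed by more than the gap between the diets. The log2 difference was 1.16 ± 0.34 (SE, limma adjusted p = 0.0758 over genes), with a 95% interval from 0.389 to 1.93.

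Cdh5 encodes VE-cadherin, which holds endothelial cells together. Its probe sets differed. On 1422047_at, signals were 26.6, 26.4 and 13.9 on ketogenic arrays, while 9.3, 8.5 and 10.5 on chow arrays were all under the background. With such signals raised to the background, the ketogenic level was at least 1.99-fold higher, a bound that leaves out the spread between arrays, and the fit gave limma adjusted p = 0.0736. On the brighter 1433956_at, signals were 65.6, 74.7 and 60.0 on ketogenic and 60.3, 51.4 and 44.9 on chow arrays, and chow array 1 lay just above ketogenic array 3. There the log2 difference was 0.36 ± 0.24 (SE, limma adjusted p = 0.402 over genes). The difference between the probe sets was not tested.

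**Figure D2:**
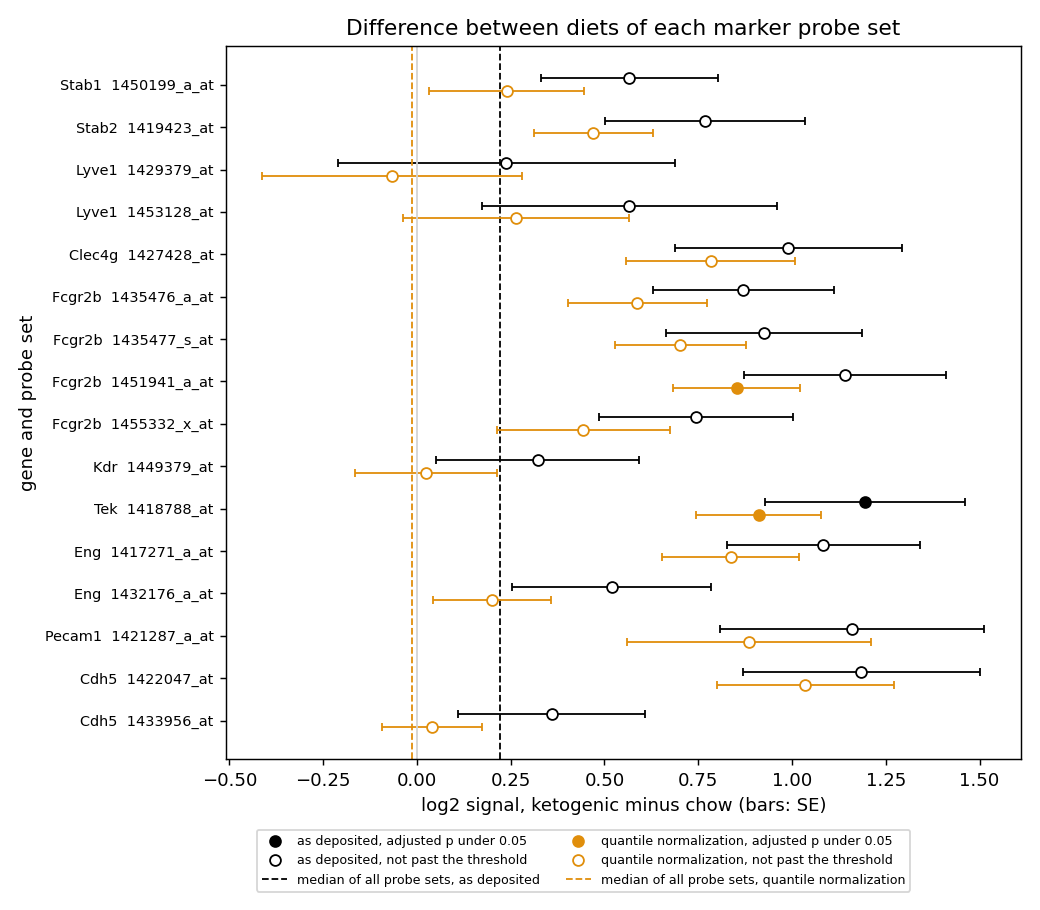
Log2 signal, ketogenic minus chow, of the 16 marker probe sets (bars, SE), as deposited (black) and after quantile normalization (orange), where filled points have adjusted p under 0.05, and dashed lines are the medians of all probe sets, 0.221 as deposited and -0.0127 after quantile normalization. Most points lie right of the line of their own colour under both, while Kdr, Lyve1 1429379_at and Cdh5 1433956_at lie near it.

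The size of the differences depended on how arrays were scaled. With arrays set to a common median, the 16 probe sets had a median log2 difference of 0.708 beside 0.109 for all probe sets. With a common trimmed mean it was 0.607 beside 0.00841, with quantile normalization 0.529 beside -0.0127, and with scaling to the hybridization controls 1.18 beside 0.583. Scaling to a median, a trimmed mean or the hybridization controls moves each array as a whole, so it hardly alters the gap between the markers and all probe sets, and its constancy there is no added evidence. Tek and Eng rose in the gene fit under all 5, with adjusted p from 0.00403 to 0.0268 for Tek and from 0.0049 to 0.0407 for Eng. With a common median 5 of the 10 genes rose, the others being Stab2, Clec4g and Fcgr2b, where 7.73% of all genes rose. With hybridization control scaling 8 did, all except Lyve1 and Kdr, where 32.2% of all genes rose.

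Both calls were lost when any array except chow array 1 was left out. Without ketogenic array 1, 2 or 3, or without chow array 2 or 3, none of the 10 genes passed. The adjusted p of Tek was then 0.0918, 0.0621, 0.0507, 0.0608 and 0.0646 in this order, and that of Eng 0.103, 0.0722, 0.0799, 0.0918 and 0.0836. Without chow array 1, the brightest of its diet, 5 of the 10 genes rose: Tek, Eng, Clec4g, Fcgr2b and Pecam1. The count over all genes moved too: 836 rose in that fit, 774 with all arrays, and 435 to 569 when another array was left out. With no filter on low signals, more probe sets entered both the adjustment and the moderation of the SE. None of the 10 genes passed then, and 216 of all genes rose. Which of these changes mattered was not tested. With the mean of a gene's probe sets the call of Eng was lost (limma adjusted p = 0.0914).

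**Figure D3:**
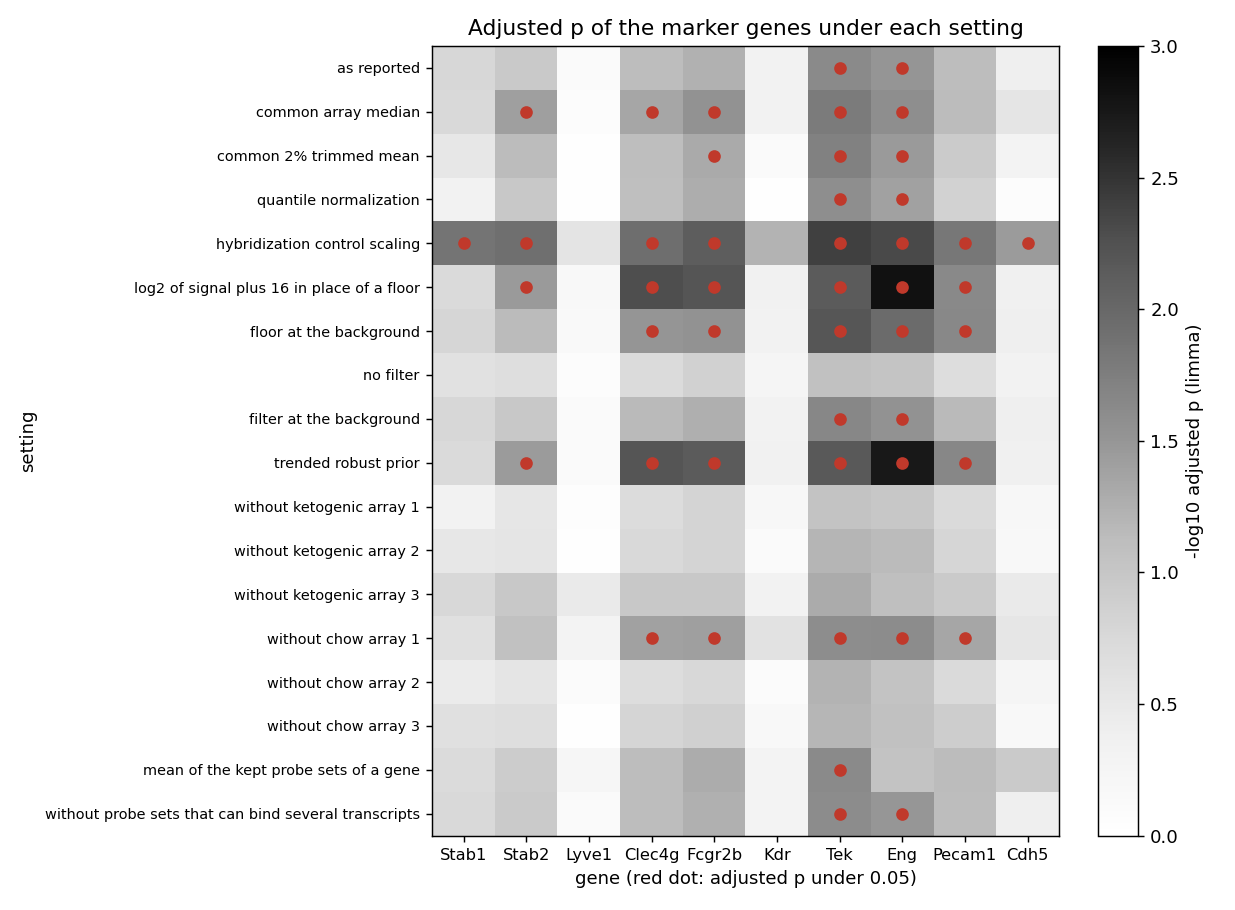
Adjusted p of the 10 marker genes (columns) under each setting (rows), shown as grey by -log10, with a red dot where it is under 0.05. Tek and Eng have dots under the scalings, and rows that leave out 1 array have none except the row without chow array 1, which has 5.

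Further genes known from sinusoidal endothelium were examined as a list of 29, of which 26 were tested, and 5 rose and 0 fell. Among all genes 6.52% rose, with a median log2 difference of 0.235, and 4.82% to 32.2% rose over the 5 scalings. In the list the median was 0.674, and 4 to 17 rose over the scalings. The rises with the largest differences were those of Cd36, a fatty acid receptor that hepatocytes and macrophages also carry, by 2.77 ± 0.35, Icam1, an adhesion molecule induced by inflammation in several cell types, by 2.08 ± 0.30, and Clec1b, a lectin also made by Kupffer cells and platelets, by 1.48 ± 0.29 (log2, SE, limma adjusted p = 0.00326, 0.00555 and 0.0161). The brightest that did not pass were Ctsl, a lysosomal protease, with a log2 difference of -0.07, and Scarb1, the receptor of high density lipoprotein, with 0.24. All 3 of the genes named as rising are thus also made by other cells, which says nothing of the other rises in the list.

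Of 48 genes common to endothelium in many organs, 41 were tested, and 6 rose and 0 fell, with a median log2 difference of 0.632. Among all genes 6.52% rose, with a median of 0.235. Over the scalings 5 to 25 of the 41 rose, and 4.82% to 32.2% of all genes. Without ketogenic array 1, 2 or 3 the count of the list was 1, 1 and 3, and without chow array 3 it was 2. Cd93, a receptor of endothelium and myeloid cells, had 72.0, 106.1 and 111.4 on ketogenic and 30.7, 28.0 and 20.1 on chow arrays and rose by 1.87 ± 0.28. Lmo2, a transcriptional cofactor of endothelium and blood progenitors, rose by 1.26 ± 0.24, and Ecscr, an endothelial surface protein, had 44.4, 46.3 and 39.6 on ketogenic and 18.1, 23.4 and 15.2 on chow arrays and rose by 1.22 ± 0.25 (log2, SE, limma adjusted p = 0.00634, 0.0154 and 0.0203 for these 3 genes). Ptprb, a phosphatase that acts on Tie2, and Nr2f2, a venous transcription factor, were the brightest that did not pass, with log2 differences of 0.30 and 0.29.

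Among ligands, co-receptors and signal proteins that act with Kdr and Tek, 0 of 22 tested passed the threshold in limma, 5 had an unadjusted p under 0.05 (4 of them higher and 1, Foxo3, lower, named after its value was seen), and the median log2 difference was 0.397. As deposited 6.52% of all genes rose, with a median of 0.235. Over the scalings 0 to 8 of the 22 rose, and 4.82% to 32.2% of all genes. Without chow array 1 there were 2 rises in the list, without ketogenic array 3 there was 1, and without ketogenic array 2 there was 1 fall. Nrp1, a co-receptor of Kdr, had a log2 difference of 0.57 and Epas1, a hypoxia-inducible factor, of 0.15. In the pathway in which endoglin takes part, 3 of 18 tested rose and 0 fell, with 3 to 12 rises over the scalings and 1 fall without chow array 3. Acvrl1, the type I receptor that endoglin assists, had 32.7, 35.3 and 23.0 on ketogenic and 6.7, 6.6 and 12.9 on chow arrays (limma adjusted p = 0.0117). Its ketogenic mean was at least 2.61-fold higher, a bound that leaves out the spread between arrays. On the log2 scale its chow arrays averaged under the filter, so it entered the fit, and the count of rises, only through its ketogenic arrays. Tgfb1, the ligand made by many cell types, rose by 1.50 ± 0.23, and Id1, a target gene, by 1.42 ± 0.32 (log2, SE, limma adjusted p = 0.00685 and 0.0312). Id2 and Id3, the brightest that did not pass, had log2 differences of -0.25 and 0.68.

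Of other scavenger, lectin and Fc receptors, 10 of 24 tested rose and 0 fell, with a median log2 difference of 1.04 and 6 to 15 rises over the scalings. Without ketogenic array 1 or 2 there were 6. Besides Cd36 and Fcgr3 these included Marco, a macrophage scavenger receptor (limma adjusted p = 0.0447). It had 164.3, 223.8 and 35.1 on ketogenic and 37.0, 4.0 and 4.2 on chow arrays. Its diets overlapped, as ketogenic array 3 lay below chow array 1. The ketogenic mean was at least 6.70-fold higher, a bound on the means that leaves out this spread between arrays. On the log2 scale the chow arrays of Marco averaged under the filter, so it entered the fit, and the counts of rises, only through its ketogenic arrays. Asgr1 and Cd302 had log2 differences of 0.08 and -0.14. Of junction and adhesion genes 2 of 20 rose, Icam1 and Vcam1, with a median log2 difference of 0.564 for the list. Vcam1, a ligand for leukocyte integrins, rose by 1.99 ± 0.41 (log2, SE, limma adjusted p = 0.0212). Over the scalings 1 to 12 of the list rose, and 1 without ketogenic array 3. Beside both lists, 6.52% of all genes rose as deposited and 4.82% to 32.2% over the scalings, with a median of 0.235 as deposited. The catenins Ctnnb1 and Ctnna1, partners of VE-cadherin and of other cadherins, had log2 differences of 0.65 and 0.49 and did not pass. Lists share members: Cd36, Scarb1, Icam1, Ptprb, Marco, Asgr1 and Cd163 each belong to 2 lists, as do further genes not named. Cd36 and Icam1 are counted as rises in both of their lists. Marco, Fcer1g and Clec4f, the last pair named for this reason only, are counted as rises among both the scavenger and the macrophage genes.

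Markers of macrophages and of stellate cells and fibroblasts rose on the same arrays. There 6.52% of all genes rose, with a median log2 difference of 0.235, and 4.82% to 32.2% rose over the scalings. Of 19 tested macrophage genes 16 rose, with a median log2 difference of 1.96 and 14 to 17 rises over the scalings. The summed signal of the 20 listed genes was 6519 to 9050 on ketogenic and 1817 to 2231 on chow arrays, and none of them lay under the background on all arrays. Lyz2, a lysozyme of myeloid cells, rose by 2.68 ± 0.23 and Cd68, a lysosomal protein of macrophages, by 2.71 ± 0.25 (log2, SE, limma adjusted p = 0.000693 for each), while Adgre1 (F4/80) and Cd163 had log2 differences of 0.47 and 0.75 and did not pass. Of 17 tested stellate cell and fibroblast genes 13 rose, 7 to 15 over the scalings and 8 without ketogenic array 3, with a median of 1.34. Their summed signal was 4845 to 6616 on ketogenic and 1877 to 2354 on chow arrays. Col3a1, a fibrillar collagen, rose by 2.96 ± 0.38 (log2, SE, limma adjusted p = 0.00354). Col1a1 was at least 8.50-fold and Pdgfra, a growth factor receptor, at least 4.03-fold higher (limma adjusted p = 0.011 and 0.0212). These bounds are on the means and leave out the spread between arrays. On the log2 scale the chow arrays of Col1a1 and Pdgfra averaged under the filter, so both entered the fit, and the count of rises, only through their ketogenic arrays. Ecm1 and Bgn did not pass, with log2 differences of 0.49 and 1.10.

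No B or T cell gene passed in limma (0 of 8 tested, and 0 at an unadjusted p under 0.05), with Ighm at a log2 difference of -0.02 and Cd8a at 0.23. Of the 13 such genes with a probe set Cd3d, Cd3g and Cd2 lay under the background on all arrays, and the summed signal was 192.8 to 289.2 on ketogenic and 182.7 to 221.5 on chow arrays. No platelet gene passed either (0 of 6 tested, and 0 at an unadjusted p under 0.05), with log2 differences of 0.39 for Itga2b and 0.52 for Pf4. These were the only positive ones among the 6, whose median was -0.301, and Gp6 and Gp9 lay under the background on all arrays. Their summed signal was 169.8 to 232.4 on ketogenic and 165.5 to 222.9 on chow arrays. Of bile duct genes 0 of 3 tested passed (0 at an unadjusted p under 0.05), with Epcam at 1.05, Sox9 at 0.37 and Muc1 under the background, in a summed signal of 97.2 to 132.0 on ketogenic and 55.2 to 85.4 on chow arrays. With hybridization control scaling 1 B or T cell gene and 1 platelet gene rose, and with no filter 1 bile duct gene did.

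Of 13 hepatocyte genes 2 fell and 0 rose, where 0.868% of all genes fell and 6.52% rose. Tat, which degrades tyrosine, fell by 2.03, and Cps1, of the urea cycle, fell by 1.82 on the log2 scale (limma adjusted p = 0.00793 and 0.00925). The median log2 difference was -0.107 and ran from -0.319 to 0.255 over the 5 scalings, so its sign depended on the scaling. With hybridization control scaling 1 gene rose, and with no filter none fell. Apoa1 and Apoa2 had log2 differences of -0.18 and -0.11, and the summed signal was 56830 to 64820 on ketogenic and 68650 to 75600 on chow arrays. This sum includes Tat and Cps1, with mean signals of 769.1 and 1730 on ketogenic and 3088 and 5836 on chow arrays. Of the 13 log2 differences 4 were positive, so the sum does not stand for each gene. The endothelial median of 0.847 over the 10 genes lay between the hepatocyte median and those of stellate cells and macrophages. These medians describe the lists and the difference between lists was not tested. The part of macrophages, of stellate cells and of hepatocytes in the endothelial values was not tested.

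**Figure D4:**
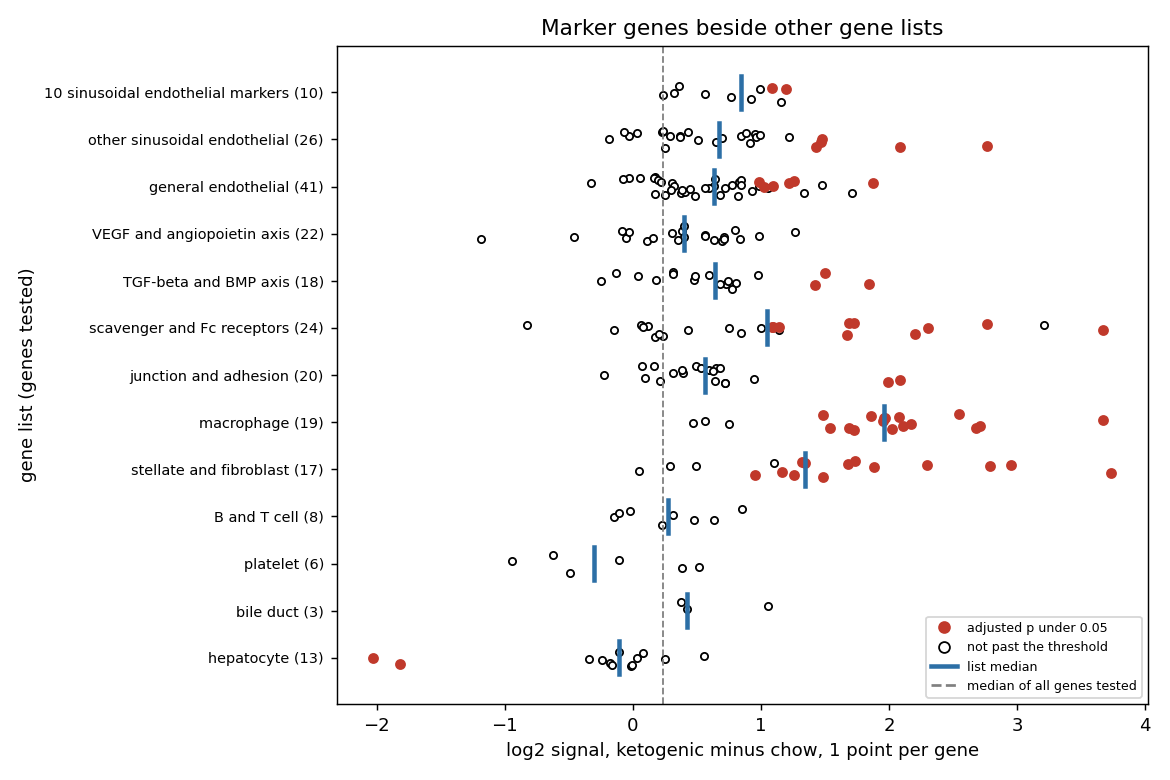
Log2 signal, ketogenic minus chow, of each tested gene of the 10 markers and of 12 other lists, where red points have adjusted p under 0.05, blue bars are list medians and the dashed line is the median of all genes, 0.235. The markers span 0.239 to 1.19 around a median of 0.847, left of the macrophage median of 1.96 and the stellate and fibroblast median of 1.34.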

How the data were processed

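Liver RNA was measured on 6 one-colour arrays, grouped by the diet in their titles and numbered in deposition order within a diet, which pairs no arrays. The deposited intensity values hold 1 linear signal per probe set. The submitters' processing notes name GCOS and MAS5. Their versions and the scaling target were not given in the sources, and the values were used as deposited. Precision is limited by the number of arrays.

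Of 45101 probe sets, 64 controls were left out and 34958 had 1 gene symbol, 34754 of which matched RefSeq (GRCm38.p6) by gene ID. Signals under 1.1, the 10th percentile, were raised to it before taking log2. The fits kept probe sets averaging at least 3.354 on that scale (signal 10.22) and were made with lmFit and eBayes (limma 3.58.1, R 4.3.3), with 4 residual degrees of freedom. The prior had 4.68 degrees of freedom over probe sets and 5.07 over genes. The background was the 95th percentile of the bacterial controls, averaged over arrays on the log2 scale. Where 1 diet's mean log2 signal lay under it, lower signals were raised to it, and the fold given as a bound was the lesser of those from arithmetic and geometric means. Each such bound is on the means and leaves out the spread between arrays. The fits were tested on simulated data. A first requirement set how many changes of moderate size, larger than any marker difference, should be recovered. The probe set fit did not meet it. The requirement was then moved to a still larger change, which both fits met. Small changes, about the size of the largest marker differences, were seldom recovered, so a marker that did not pass may still differ.

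The named genes are the 10 markers with all probe sets and, from each of the 12 other lists, up to 3 changed genes with the largest absolute log2 difference and the 2 brightest unchanged ones. Markers and lists were chosen with earlier results of these data known. Alternatives were 4 array scalings, an offset of 16 or a higher floor, other filters, a trended prior, other ways to pick probe sets, and leaving out each array. Genes of the lists with no probe set of a single symbol were not analysed here.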

Additional observations from a re-analysis of the deposited data

How the results depend on the processing

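As reported, 918 probe sets were higher and 127 lower on the ketogenic diet, 774 genes were higher and 103 lower, and 1 marker probe set and 2 marker genes were higher. No marker was called lower under any alternative run. Among probe sets 4985 were higher with hybridization control scaling, 1897 (and 372 lower) with log2 of signal plus 16, 1633 (290 lower) with a floor at the background, 140 (38 lower) with no filter and 1578 (294 lower) with a trended robust prior. Falls numbered 312 under median scaling, 403 under trimmed mean scaling and 355 under quantile normalization. Among genes 3820 were higher with hybridization control scaling, 1341 (269 lower) with log2 of signal plus 16, 1200 (222 lower) with a floor at the background, 216 (40 lower) with no filter and 1205 (233 lower) with a trended robust prior, and 277, 361 and 327 were lower under median, trimmed mean and quantile scaling. Marker probe sets called higher numbered 4, 3, 2 and 12 under median, trimmed mean, quantile and hybridization control scaling, 7 with log2 of signal plus 16, with a floor at the background and with a trended prior, 3 with a filter at the background and 0 with no filter. Marker genes numbered 5, 3, 2 and 8 under those 4 scalings, 6 with log2 of signal plus 16 and with a trended prior, 5 with a floor at the background, 0 with no filter and 1 with the mean of a gene's probe sets. Leaving out 1 array gave 272 to 974 probe sets higher and 38 to 118 lower, 435 to 836 genes higher and 60 to 144 lower, 0 to 3 marker probe sets and 0 to 5 marker genes. Lyve1 (1429379_at) reversed, to -0.0658 with quantile normalization and, over the fits that leave out 1 array, ranged from -0.0997 (without ketogenic array 2) to 0.655 (without ketogenic array 3), with -0.0936 without chow array 3, and no other marker probe set changed sign. The cause of these shifts was not tested. A setting can itself bring a larger or smaller number of probe sets and arrays, and the part of that was not tested either. No paired analysis was possible because the labels give no replicate numbers: those used here follow deposition order and pair nothing.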
